A study of Mus musculus with 4 samples.

Results

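The genes described here are 10 genes of the primitive streak and the mesendoderm, of 14386 genes named on the arrays. They were taken by their gene symbol in the platform's annotation: the ligands Wnt3 and Fgf8, the secreted inhibitor Cer1, and the transcription factors Eomes, Mixl1, Evx1, Mesp1, Gsc, Lhx1 and Foxa2. All 10 were on the arrays, 9 of them with 2 spots of 1 clone and Foxa2 with 4 spots of 2 clones. Nothing in the labels says which stretch of a transcript a spot covers.

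The primitive streak is the band of cells at the posterior end of the gastrulating mouse embryo through which epiblast cells leave the epithelium and become mesoderm and definitive endoderm. Nodal and Wnt3 signals from and around the epiblast set it up, and streak cells turn on T-box and homeobox factors such as Eomes and Mixl1. Mesp1 marks the mesoderm that leaves early, including the progenitors of the heart, while Gsc, Lhx1 and Foxa2 mark the anterior streak, the node and its derivatives. Embryoid bodies are known to switch on streak genes for a short time as they differentiate.

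The samples were CGR8 cells, a line of mouse embryonic stem cells. One group was RNA of embryoid bodies grown in hanging drops for 3 days, the other RNA of embryoid bodies at day 10, and each was hybridised with RNA labelled as day 0, undifferentiated, on 2-channel spotted arrays. Each group has 2 arrays, the second of which is labelled a technical replicate, so a group is 1 RNA pair and its SD measures technical error alone. No test was run for this reason, and with so few arrays every value is imprecise. No genotype change or added agent is named in the labels, and how many embryoid bodies or cultures went into an RNA is not given.

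Values are log2 ratios of the channels, centred on the median of each array. Neither dye nor numerator is named in the labels, so a value is on the positive or the negative side of the deposited sign, and no side is called the higher day. A call required a value of 1 or more, that is 2-fold, on the same side on each array of a day. In RNA of whole embryoid bodies, fewer cells of a type and less RNA per cell cannot be told apart.

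Between 37471 and 41386 of the 46128 spots of an array had a value. The 22 spots of the streak genes gave 68 of 88 possible readings (77.3%), against 87.1% over all named spots. Of the 37 readings at day 3, 5 were at or beyond 2-fold (13.5%), against 17.8% of all readings, and of the 31 at day 10 it was 7 (22.6%), against 23.2%.

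Mesp1, the bHLH factor of early mesoderm (GRCm38.p6 chr7:79792241-79793590), was the only one of the 10 beyond 2-fold at day 3. Its first spot read 1.93 on array 1 and had no value on array 2, and its second spot read 2.14 and 1.89. All 3 readings lay far on the positive side and close to each other. The mean was 1.97 ± 0.10 (SD over 2 technical arrays, the error given with every mean), which ranked 60 of 13707 genes from the positive end. With 1 gene called of 10, the background is 2.80% of all genes measured at day 3, where 1.77% were positive calls and 1.03% negative calls.

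The deposited ratios could be turned back into the smallest whole numbers that give them, a lower bound for channel brightness if brightness was recorded in whole numbers. Of the 68 readings, 40 gave whole numbers up to 10000, the range in which the recovery was checked. Genes were ranked by the size of these numbers, and a low rank does not show that a spot was dim. For Mesp1 at day 3 these were 610 over 163, 2292 over 529 and 6527 over 1796. Their size stood at percentile 20.6 among genes, in the lowest 25%, where the median SD between the arrays was 0.50. At day 10 the gene had a single reading, 1.55 on array 1, from 90 over 31. It was therefore not measured on both day 10 arrays and has no mean or call there.

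The promoter of Mesp1 is shown because it is the only gene of the 10 that was called, and that of Gsc because it had the next largest mean at day 3. Each line gives the 250 bases before the RefSeq transcript start (GRCm38.p6, minus strand), 5′ to 3′, and capitals mark a match to a Tcf/Lef motif, CTTTGAT, which the Gsc stretch does not hold. The Mesp1 stretch is chr7:79793591-79793840 with 55.2% G and C, and the Gsc stretch is chr12:104473237-104473486 with 59.2%.
Mesp1: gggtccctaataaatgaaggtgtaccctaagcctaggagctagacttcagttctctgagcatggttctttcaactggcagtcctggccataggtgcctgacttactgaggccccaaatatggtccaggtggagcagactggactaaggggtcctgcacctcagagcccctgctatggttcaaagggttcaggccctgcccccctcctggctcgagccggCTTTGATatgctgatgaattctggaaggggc
Gsc: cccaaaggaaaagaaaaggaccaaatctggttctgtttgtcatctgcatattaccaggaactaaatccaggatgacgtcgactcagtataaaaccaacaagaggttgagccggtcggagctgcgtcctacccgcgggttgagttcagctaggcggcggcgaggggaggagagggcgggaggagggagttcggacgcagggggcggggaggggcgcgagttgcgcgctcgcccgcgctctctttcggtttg

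Windows of 300 bases, with 50 bases after the start, were available for 8 of the 10 genes, and 5 motifs were searched on both strands in 32851 such windows. CTTTGAT was found in 3.73% of all windows and in that of Mesp1, beginning at position -31. Foxa2 has 3 windows, and the match was in the one from chr2:148045415, on the other strand from position 15 after its start. The T-box motif GGTGTGA was found in 3.98% of windows and among the streak genes in that of Mesp1 alone, on the other strand from position 6 after the start (the site reads cccgctTCACACCtagggc, with the match in capitals). A paired homeodomain palindrome was found in 0.487% of windows and in that of Eomes. Neither AATNCACA, a Foxh1 motif (3.60% of windows), nor the Smad palindrome GTCTAGAC (0.213%) was found in the windows of these genes. A match describes the letters of the window and says nothing of binding.

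**Figure D1:**
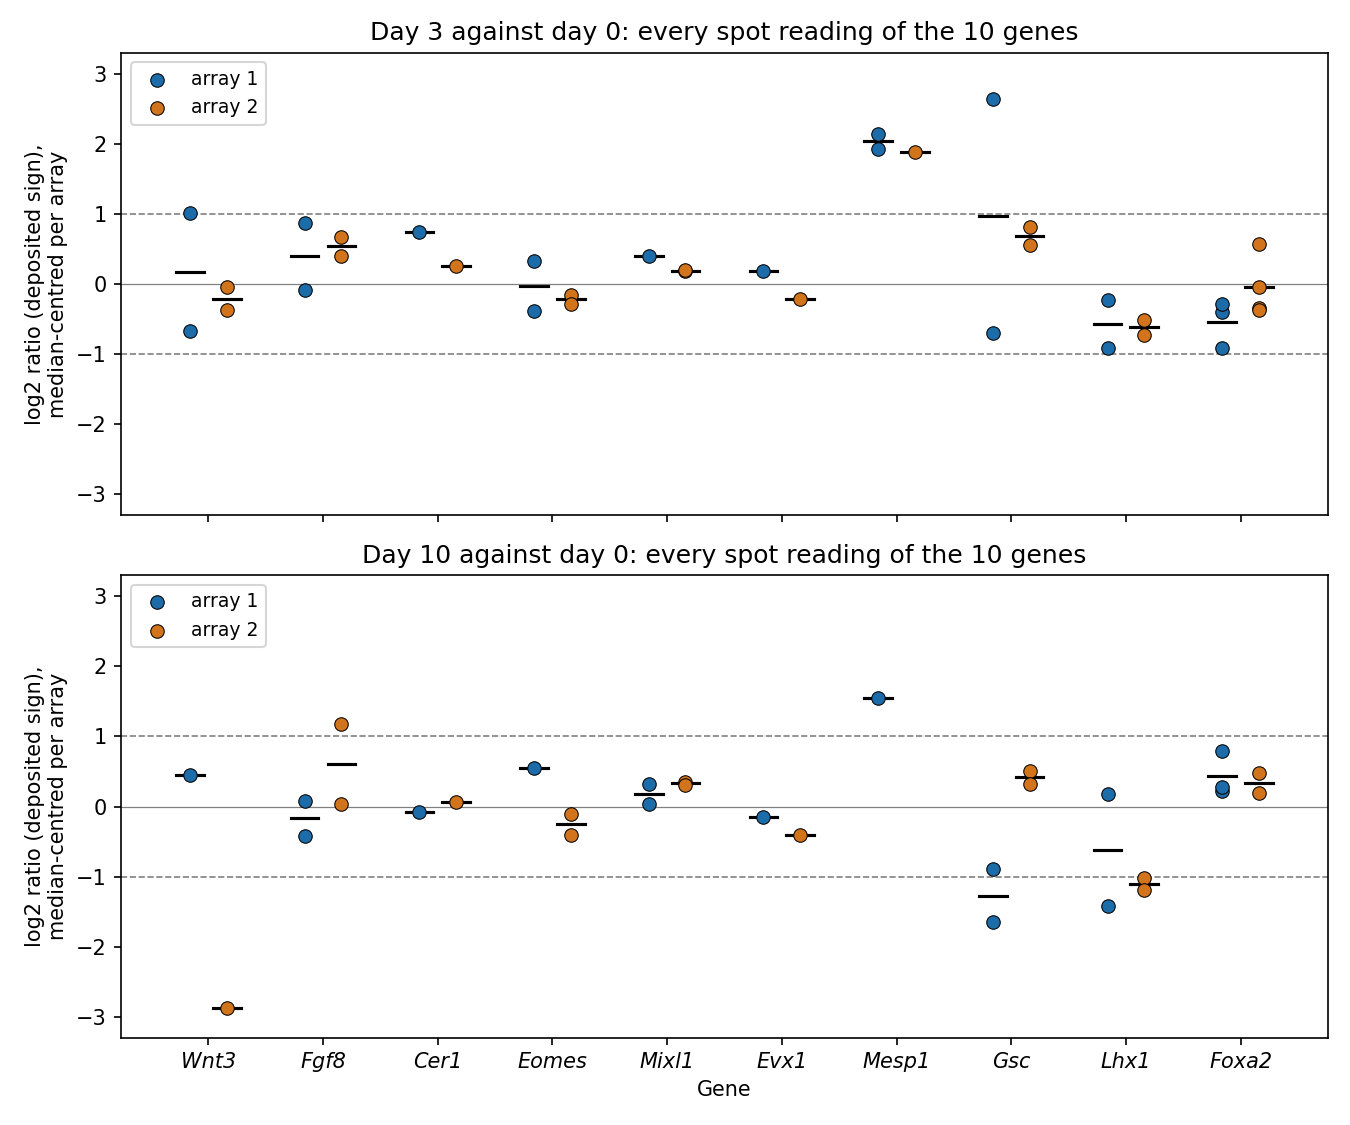
Every spot reading of the 10 genes (log2 ratio in the deposited sign, centred per array) on array 1 (blue) and array 2 (orange) of each day, with bars at the mean of a gene's spots on an array and dashed lines at 2-fold. The 3 day 3 readings of Mesp1 sit together between 1.89 and 2.14, while the day 3 readings of Gsc run from -0.70 to 2.64 and those of Wnt3 at day 10 from -2.88 to 0.44.

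Wnt3, the ligand whose loss in mouse embryos prevents streak formation (chr11:103774175-103818021), had a day 3 mean near 0. Its spots read -0.67 and 1.01 on array 1 and -0.37 and -0.04 on array 2, so the spots of array 1 lay on opposite sides. The day 3 mean was -0.02 ± 0.27, a value smaller than its SD. At day 10 only the second spot gave values, 0.44 on array 1 and -2.88 on array 2, with a mean of -1.22 ± 2.35. The array 2 reading stands alone on the negative side and came from whole numbers of 61 over 464. It is the largest distance from 0 among the 68 readings, and the technical arrays do not share its side.

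Fgf8, which drives the movement of cells away from the streak (chr19:45736491-45742941), lay on the positive side at day 3. Its spots read 0.88 and -0.09 on array 1 and 0.40 and 0.68 on array 2, for a mean of 0.47 ± 0.10. Thus 3 of its 4 readings were positive and none reached 2-fold. Between the day 3 arrays its spots moved in opposite directions, which the small SD does not show because the spots were averaged first. At day 10 the spots read -0.42 and 0.08 on array 1 and 1.18 and 0.04 on array 2. The mean of 0.22 ± 0.55 is smaller than its SD.

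Cer1 is a secreted antagonist of Nodal and BMP made by anterior visceral endoderm and early definitive endoderm (chr4:82881751-82885151). It was read from different spots on the day 3 arrays. Its first spot gave 0.74 on array 1 alone and its second spot 0.25 on array 2 alone, so the difference between arrays is also one between spots. The mean was 0.50 ± 0.35. Day 10 rested on the second spot, with -0.08 and 0.07 and a mean of -0.01 ± 0.11. Its recovered whole numbers at day 3, 755 over 461 and 190 over 163, stood at percentile 8.01, the lowest of the 10 genes.

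Eomes, the T-box factor needed for definitive endoderm and for cells to leave the streak (chr9:118478186-118486132), had readings on both sides of 0 at each day. At day 3 its spots read -0.38 and 0.33 on array 1 and -0.15 and -0.28 on array 2, with a mean of -0.12 ± 0.13. At day 10 they read 0.54 on array 1, from 1 spot, and -0.41 and -0.10 on array 2, with a mean of 0.14 ± 0.57. Each mean is smaller than its SD.

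Mixl1, a paired-type homeobox factor of the streak and its mesendoderm (chr1:180693043-180697034), was on the positive side in all of its 7 readings. The day 3 readings were 0.40 on array 1 and 0.18 and 0.20 on array 2, with a mean of 0.29 ± 0.14. The day 10 readings were 0.03 and 0.32 on array 1 and 0.35 and 0.31 on array 2, with a mean of 0.26 ± 0.11. None of these readings was near 2-fold. Of the genes measured at day 3, 55.7% were as far from 0 as Mixl1 or farther, and 66.0% at day 10.

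Evx1, a homeobox factor of the posterior streak (chr6:52313498-52318389), was also read from different spots on the day 3 arrays, with 0.19 from the first spot on array 1 and -0.22 from the second on array 2. Its day 3 mean was -0.02 ± 0.29. The second spot gave the day 10 values, -0.15 and -0.41, with a mean of -0.28 ± 0.18. Both day 10 values were on the negative side and short of 2-fold.

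Gsc, a homeobox factor of the organizer and anterior streak (chr12:104471209-104473236), had the second largest day 3 mean and the widest spread between spots. On array 1 its spots read -0.70 and 2.64, a gap of 3.34 that was wider than that of 98.6% of the genes with 2 spots there, where the median gap was 0.35. On array 2 the spots read 0.56 and 0.82. The mean of 0.83 ± 0.20 hides this gap, since the spots of an array were averaged before the SD was taken. The reading of 2.64 came from 592 over 97, and without readings whose smaller whole number was under 100, a setting added after seeing the data, the day 3 mean was -0.0024. That mean joined arrays on opposite sides, -0.70 from 1 spot on array 1 and 0.69 from both spots on array 2.

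At day 10 the arrays of Gsc lay on opposite sides, with spots at -0.89 and -1.65 on array 1 and at 0.50 and 0.33 on array 2. The mean was -0.43 ± 1.19. The second spot gave small whole numbers on both of these arrays, 93 over 295 and 67 over 55.

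Lhx1, a LIM homeobox factor of the anterior mesendoderm and visceral endoderm (chr11:84517975-84525534), lay on the negative side in 7 of 8 readings. At day 3 its spots read -0.91 and -0.22 on array 1 and -0.72 and -0.51 on array 2, with a mean of -0.59 ± 0.03. Here too the spots moved in opposite directions between the arrays, so the small SD does not measure their agreement. At day 10 the spots read -1.42 and 0.17 on array 1 and -1.02 and -1.19 on array 2. The day 10 mean was -0.86 ± 0.34, with array means of -0.62 and -1.10, so 1 of the arrays passed 2-fold. From its steadier spot, the one whose arrays differed least, Lhx1 was at -1.22 and called at day 10. That setting called 755 of 12804 genes, and it chooses spots by the array agreement that a call also requires. All 8 of its readings gave whole numbers beyond 10000, outside the checked range, so its percentiles of 90.6 and 85.3 say little of its brightness.

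Foxa2, the forkhead factor of node, notochord and definitive endoderm (chr2:148042877-148046969), had 12 of 16 possible readings. On day 3 array 1 its spots read -0.40, -0.29 and -0.92, and on array 2 they read -0.35, -0.37, 0.57 and -0.04. The mean, -0.29 ± 0.34, is smaller than its SD. On day 10 array 1 they read 0.79, 0.23 and 0.28, and on array 2 they read 0.20 and 0.47, with a mean of 0.39 ± 0.07. That small SD hides shifts in opposite directions, from 0.79 to 0.20 on the first spot and from 0.23 to 0.47 on the second. The reading of 0.28 came from the second clone, which had no value on array 2. All 5 day 10 readings were thus positive and 6 of 7 day 3 readings negative. The positive one at day 3 came from the second clone, whose other spot read -0.92 and -0.04.

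**Figure D2:**
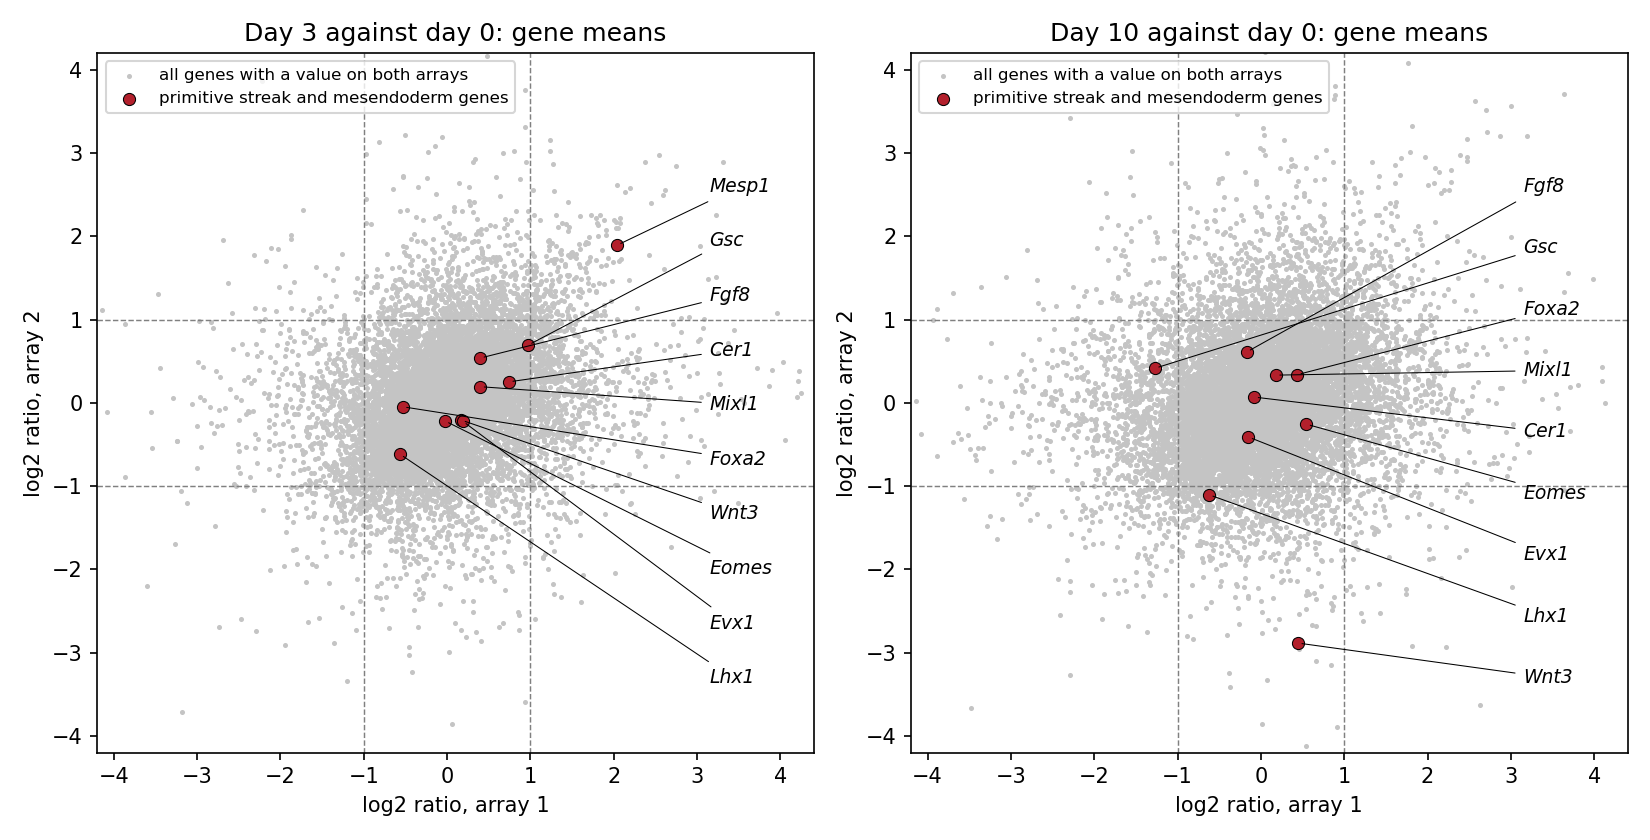
Gene means on array 1 (x axis) and array 2 (y axis) of each day, as log2 ratios, with all genes in grey, the streak and mesendoderm genes in red and dashed lines at 2-fold; genes beyond the axes are not drawn, and Mesp1 is missing at day 10. Only Mesp1 lies in a corner beyond 2-fold on both arrays at day 3, and at day 10 Wnt3 and Gsc lie far from the diagonal.

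As a group, the streak genes had a median of 0.14 at day 3, against 0.01 over all 13707 genes. Their means ran from -0.59 to 1.97. On both arrays 5 of the 10 were positive (32.9% of all genes), 3 negative (31.8%) and 2 on opposite sides (35.3%). The SD exceeded the distance from 0 for 4 of 10 genes, against 46.3% of all genes. The median of the 10 was 0.29 on array 1 and 0.07 on array 2, and it was -0.17 over 8 genes when each was read from the spot whose arrays differed least.

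Day 10 gave 0 of 9 genes beyond 2-fold on both arrays, beside 3.54% of 13199 genes (2.15% positive calls and 1.39% negative calls). The 9 had a median of -0.01, equal to the -0.01 of all genes, with means from -1.22 to 0.39. They were positive on both arrays in 2 cases (30.0% of all genes), negative in 2 (30.8%) and on opposite sides in 5 (39.2%). For 5 of 9 the SD exceeded the distance from 0, against 49.9% of genes. With array 1 left out, Wnt3 and Lhx1 passed 2-fold on the negative side on array 2 alone, and with array 2 left out, Mesp1 passed it on the positive side and Gsc at -1.27 on the negative. These are 2 of 9 and 2 of 10 genes, beside 16.2% of all genes on array 2 and 20.4% on array 1 alone.

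**Figure D3:**
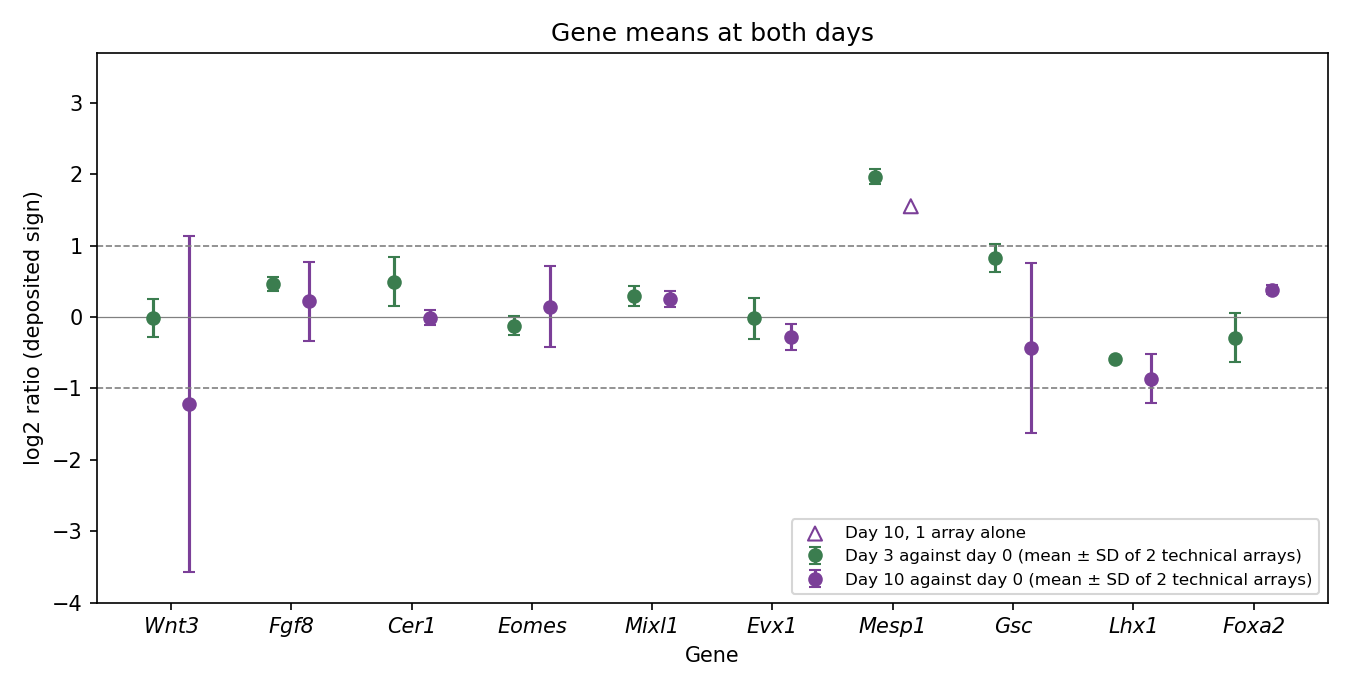
Means of the 10 genes at day 3 (green) and day 10 (purple) as log2 ratios in the deposited sign, with bars for the SD of 2 technical arrays, a triangle for the lone day 10 reading of Mesp1 and dashed lines at 2-fold. Mesp1 at 1.97 is the only mean beyond the line at day 3, and the day 10 mean of Wnt3, -1.22, is the one with the widest bar, 2.35.

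Differences between the days were taken through the day 0 RNA, on the assumption, found in no label, that every array carried the same day 0 RNA. They are day 10 minus day 3, with an SD that combines those of both days, and a call needs all 4 array differences at or beyond 1 on the same side. None of the 9 genes with 4 values was called, beside 3.54% of 12654 genes (1.82% positive calls and 1.72% negative calls). Their median difference was -0.26, against -0.01 over all genes.

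The 4 differences of Gsc were -2.24, -1.96, -0.56 and -0.28, all negative, with a mean of -1.26 ± 1.21. Those of Wnt3 were 0.27, 0.65, -3.05 and -2.68, on both sides, with a mean of -1.20 ± 2.37. Which day 10 array was used therefore decided both: without day 10 array 1 Wnt3 passed the limit, and without day 10 array 2 Gsc passed it, beside 11.9% and 15.4% of all genes. Foxa2 differed by 0.68 ± 0.35, with all 4 differences positive between 0.38 and 0.97. Cer1 differed by -0.50 ± 0.36, with all 4 negative between -0.82 and -0.18.

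The smaller differences were 0.27 ± 0.58 for Eomes, -0.27 ± 0.34 for Lhx1, -0.26 ± 0.34 for Evx1, -0.25 ± 0.56 for Fgf8 and -0.04 ± 0.18 for Mixl1. Each of these 5 is smaller than its SD. For Mesp1 only day 10 array 1 can be compared, at -0.49 and -0.34 from the day 3 arrays.

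The size of the recovered whole numbers moved with the error of these values. Over all genes the median SD at day 3 fell from 0.50 in the lowest 25% by that size to 0.14 in the highest 25%, and at day 10 from 0.58 to 0.19. Wnt3 and Gsc, with the largest SDs at day 10, stood at percentiles 16.8 and 16.6 there. Cer1, at percentile 23.7, had an SD of 0.11 on the same day, so small numbers did not always go with a wide spread. The part of brightness in any of the differences was not tested.

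**Figure D4:**
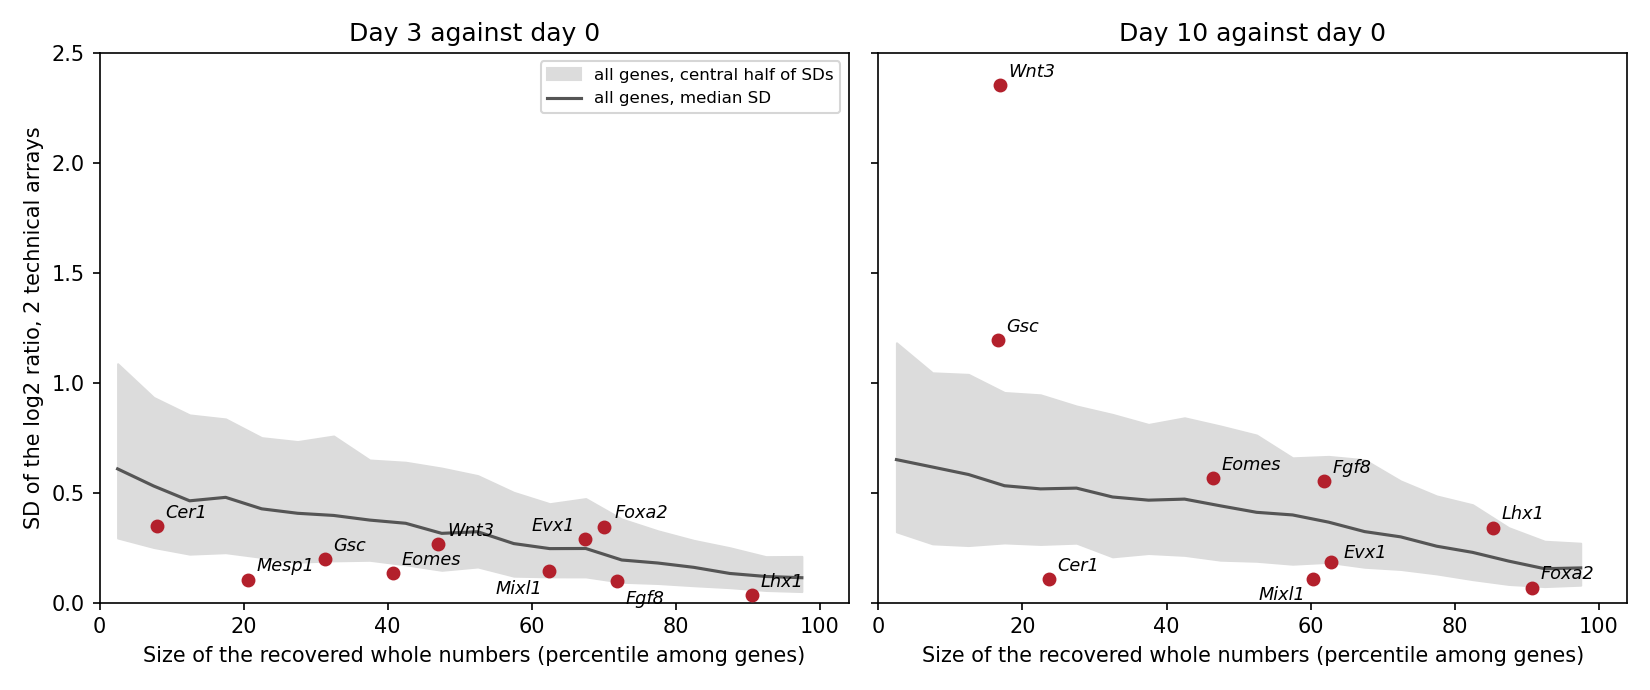
SD of 2 technical arrays (y axis, log2) against the percentile of the size of the recovered whole numbers among genes (x axis) for each day; the line and band give the median and the central 50% of all genes. At day 10 Wnt3 and Gsc lie above the band with SDs of 2.35 and 1.19, and Lhx1 and Foxa2 lie at the high end at percentiles 85.3 and 90.8. All 8 readings of Lhx1 and 10 of the 12 of Foxa2 gave whole numbers beyond 10000, outside the checked range.

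Genes that act with these 10 were set beside them in 7 lists: the Nodal, Wnt, Fgf and Bmp pathways, mesoderm, definitive and anterior endoderm, and the epithelial-mesenchymal transition. The lists hold 108 genes, of which 92 were measured on both day 3 arrays and 84 on both day 10 arrays. At day 3, 2 were called (2.17%), both on the negative side, and at day 10, 2 were called (2.38%), 1 on each side. These shares lie near the background of 2.80% and 3.54%.

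Chrd, the BMP antagonist chordin made by the node, was at -1.76 ± 0.12 at day 3, with -1.68 and -1.85 on its arrays. Prdm1, a zinc finger repressor of early endoderm and germ cells, was at -1.08 ± 0.02, with -1.09 and -1.07. The arrays of each of these genes were close together and on the negative side, opposite to Mesp1. At day 10 Fzd2, a Wnt receptor, was at 1.31 ± 0.21, and Spry4, an inhibitor of FGF signalling, at -1.67 ± 0.75. The recovered whole numbers of Fzd2 were small there, at percentile 4.43. Between the days Fgf4, an FGF of the inner cell mass and epiblast, differed by 1.60 ± 0.41 and was the only one called of 78 (1.28%).

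List medians at day 3 were 0.23 for the Nodal pathway over 8 genes, 0.31 for the Wnt pathway over 17, -0.19 for the Fgf pathway over 13 and -0.22 for the Bmp pathway over 12. Mesoderm genes had 0.12 over 17, endoderm genes -0.21 over 11 and transition genes -0.12 over 15. Leaving out an array or choosing other spots moved most of these medians. The endoderm median was -0.06 and -0.02 with an array left out and 0.19 from the spots whose arrays differed least. The Bmp median was 0.04 and -0.10 with an array left out, the Fgf median -0.12 and -0.11, the mesoderm median 0.24 and 0.20, and the transition median -0.05 and -0.29. For transition genes it was 0.07 from spots with values on all 4 arrays. The Nodal median was 0.25 and 0.09 and the Wnt median 0.16 and 0.41 with an array left out. At day 10 the medians in the same order were -0.23, 0.15, -0.07, -0.28, 0.09, 0.30 and -0.01. The Bmp pathway medians on the separate day 10 arrays were 0.01 and 0.32, both positive, while that of the gene means was negative.

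Markers of other cells were read for the same RNA. Of 14 pluripotency genes measured at day 3, Dppa5a was called at -2.71 ± 0.04, and the list had a median of -0.33, with means of -0.89 ± 0.15 for Pou5f1, -0.38 ± 0.31 for Sox2, -0.48 ± 0.37 for Nanog and -0.78 ± 0.01 for Zfp42. Visceral and parietal endoderm genes, a tissue that also uses Foxa2, Lhx1, Cer1 and Eomes, had a median of -0.09 over 13 with Apob called at 1.29 ± 0.35, and Afp was at -0.17 ± 0.20 and Ttr at 0.23 ± 0.21. Trophoblast genes, a tissue that also uses Eomes, had 0.35 over 8 with Tfap2c called at 1.45 ± 0.00, and neural genes 0.46 over 9 with Neurog2 called at 1.22 ± 0.19.

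At day 10 none of the 41 measured genes of these 4 lists was called, and their medians were -0.55 for pluripotent cells, 0.26 for endoderm, -0.06 for trophoblast and 0.31 for neural genes. Afp was at -0.76 ± 0.84 and Ttr at -0.70 ± 0.62, each with arrays on the negative side. Dppa5a, called at day 3, read 0.41 on day 10 array 1 and -2.85 on array 2, with a mean of -1.22 ± 2.30. Pou5f1 was at -1.39 ± 0.99, Nanog at -0.22 ± 0.52 and Zfp42 at -0.55 ± 0.18, and Sox2 had no value on array 1. At day 3, 4 of 44 were called (9.09%), beside 2.80% of all genes, and the background for 0 of 41 at day 10 is 3.54%. The part of these cell types in the values of the streak genes was not tested.

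**Figure D5:**
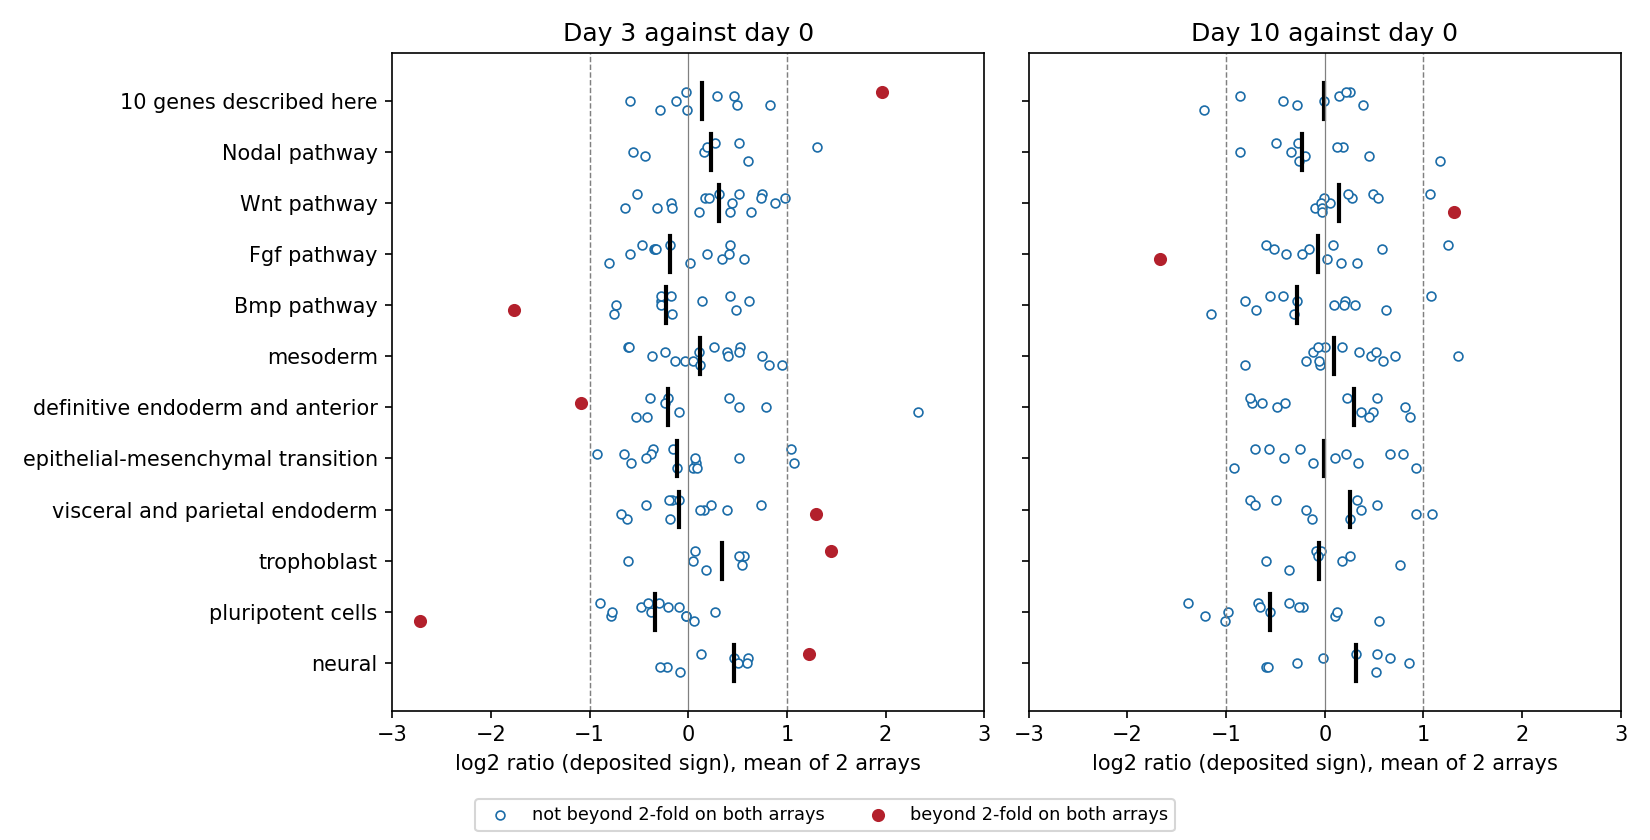
Gene means at day 3 (left) and day 10 (right) as log2 ratios in the deposited sign for the 10 genes, the 7 related lists and 4 lists of other cells; filled points are beyond 2-fold on both arrays, black bars are list medians and dashed lines mark 2-fold. Filled points are few or absent in every list, with none at either day for the Nodal pathway, mesoderm and transition lists. The filled points farthest from 0 at day 3 are Mesp1 at 1.97 and Dppa5a at -2.71.

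Genes near Mesp1 were sought by Euclidean distance over the 3 arrays on which it had values. The candidates were 11207 genes with values on all 4 arrays, with RIKEN, EST, LOC and Gm names left out. The nearest were Olfr52, an olfactory receptor gene, at 0.64, Dydc2 at 0.67 and Rps12, a ribosomal protein gene, at 0.76. The median distance was 3.31. On day 10 array 2, where Mesp1 had no value, Olfr52 read 0.87 and Dydc2 0.90, but Rps12 read -0.73. The distance describes 3 arrays of 2 RNA pairs and no more.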

How the data were processed

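The authors deposited 1 log2 ratio per spot and array. That the base is 2 was settled from the values: 59.3% to 62.0% of an array's values were ratios of whole numbers up to 10000 to 9 decimals, and no more than 1.84% were once the values had been shifted slightly at random. Scanner, software, dyes and numerator, background treatment, dye correction and the reason for a missing value: each is not given in the sources used. Spots were named through the platform's annotation, and the Entrez IDs were checked against RefSeq's genes (GRCm38.p6) for newer symbols (0 changed). Of 46128 spots, 12996 are unnamed here, 588 with several symbols and 480 control spots were left out, and 32064 were kept. The median of the spots that are not controls was subtracted on every array, and a gene's value is the average over its spots. Promoter sequences are from RefSeq, GRCm38.p6.

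The genes named are all 10 streak genes with every spot, of each related list the at most 2 called members farthest from 0, 6 reference genes and the 3 genes nearest to the called gene farthest from 0. That gene, Mesp1, lacked 1 array, so 3 arrays were used. Nodal and Mesp2 in the closing section fall outside this rule. The genes, lists and limits were chosen with earlier results of these data known. Arrays of a day are technical replicates, so no test was run. Alternatives were no centring, scaling to a common spread, other ways to combine spots, limits of 1.5-fold and 4-fold, the mean alone and each array left out, and, chosen after seeing the data, leaving out readings whose smaller whole number was under 100. The calls and the recovery of whole numbers were tested on simulated data. These held gene values without separate spots or missing readings, so the averaging of spots was not tested. Python 3.11.15, numpy 2.4.6, pandas 2.3.3 and matplotlib 3.10.9 were used.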

Additional observations from a re-analysis of the deposited data

Results flagged for a closer look

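Foxa2 was on the negative side on both day 3 arrays, at -0.53 and -0.05, and on the positive side on both day 10 arrays, at 0.43 and 0.34, a difference of 0.68. It was the only one of 9 streak genes with values on 4 arrays whose days lay on opposite sides, and 14.0% of 12654 genes did so. The day 10 values average spots that moved in opposite directions between the arrays, with the second clone read on array 1 alone. The difference between the days was not tested, since each day is 1 RNA pair.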

How the results depend on the processing

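No paired analysis was possible because the labels give no replicate numbers and each day is 1 RNA pair. The number of streak genes beyond the limit was 1 of 10 at day 3, beside 384 of 13707 genes. It was 2 at 1.5-fold (1598 of 13707 genes) and 0 at 4-fold (24 of 13707). With spots valued on all 4 arrays, which leave Mesp1 out, it was 0 of 7 (368 of 11501). At day 10, 0 of 9 became 1 with the spot of smallest array difference (755 of 12804 genes). It was also 1 at 1.5-fold (1842 of 13199) and by the mean alone (1405 of 13199). Without replicate 1 it was 2 of 9 (2252 of 13927), and without replicate 2 it was 2 of 10 (2776 of 13620). Between the days, 0 of 9 became 2 by the mean alone (2052 of 12654 genes). With an array left out it was 0 to 1, beside 1298 of 12966 to 2012 of 13027 genes. The day 3 median was -0.17 with the spot of smallest array difference.

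Genes of the 11 other lists numbered 6 of 134 at day 3 (17 at 1.5-fold, 1 at 4-fold, 10 by the mean). With an array left out they numbered 19 of 140 and 25 of 138. At day 10 they numbered 2 of 123 (12, 0, 12, and 23 of 138 or of 128, and 1 of 107 with spots on all 4 arrays). Between the days they numbered 1 of 115 (7, 0, 14, and 6 of 120 to 15 of 120). There they were 2 with a common spread, 4 of 111 with the spot of smallest difference and 2 of 107 with spots on all 4 arrays. Over all genes, a common spread gave 444 of 12654 between the days. Spots on all 4 arrays gave 458 at day 10 and 452 between the days, of 11501.

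All genes called were 384, 467 and 448 at day 3, day 10 and between them, of 13707, 13199 and 12654 measured. Of the same genes, 1598, 1842 and 1302 were called at 1.5-fold, 24, 29 and 45 at 4-fold, and 1092, 1405 and 2052 by the mean alone. With the spot of smallest difference they were 616 of 13467, 755 of 12804 and 796 of 12121. With an array left out they were 1797 of 14093 to 2006 of 13974 at day 3 and 2252 of 13927 to 2776 of 13620 at day 10. Between the days they were then 1298 of 12966 to 2012 of 13027. A call on 1 array, on the mean or at 1.5-fold is easier to make by construction, and one at 4-fold is harder. The spot of smallest difference was chosen by the array agreement that a call also requires. The cause of the remaining shifts was not tested. Of 229 other values of single streak genes, 217 moved by no more than their SD and 12 by more, and 16 turned sign, none of them a called value. Leaving out an array moves a gene's value by no more than its SD by construction. Such settings could not be among the 12, so the 217 are no measure of stability against the loss of an array. Of 286 medians of the other lists, 52 moved by more than the SD of their array medians and 33 turned sign.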

Other observations

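A pair of genes related to the streak genes is named here after their values were seen. Nodal, the ligand that sets up the streak, read 1.96 on day 3 array 1 and had no value on array 2, so it has no day 3 mean, and at day 10 it read -0.51 and -0.03. On day 3 array 1 alone 2006 of 13974 genes were beyond 2-fold, and the Nodal pathway list had a median of 0.09. Mesp2, the paralog next to Mesp1, read -0.17 and 0.96 at day 3, and 0.30 and -0.55 at day 10, so its arrays lay on opposite sides each time.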
